A study of Mus musculus with 4 samples.

Results

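The genes described here encode receptors for monoamines, acetylcholine, neuropeptides, purines and cannabinoids in the dentate gyrus (DG) of mice given electroconvulsive stimulation (ECS), a rodent model of electroconvulsive therapy. They were chosen by symbol alone, as every probe set annotated to a single gene symbol of the serotonin, dopamine, adrenergic, muscarinic, nicotinic, neuropeptide Y, opioid, galanin, somatostatin, tachykinin, TRH, CRH, adenosine, P2X, P2Y or cannabinoid receptor families. This gave 90 of 22626 probe sets, which stand for 70 of 12393 genes. A probe set is the group of short probes on the array that reads a transcript. Of the 70 genes, 53 had 1 probe set and 17 had several, and for the latter the values given are those of the brightest probe set by mean signal. Another 3 probe sets were annotated to both Galr3 and Gcat and were not used.

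The data came from 4 Affymetrix Mouse Genome 430A 2.0 arrays, 1 per group, each hybridised with pooled RNA of 3 C57Bl/6 mice. Tissue of sham mice was taken 1 h after the sham session. The ECS groups were dissected 1 h after their only ECS, 48 h after the last of 10, or 1 h after the last of 11. ECS was given as a bilateral 25 mA current for 1 s under isoflurane, which sham mice also received without a current, and repeated ECS was spread over as many as 3 weeks at 4 sessions weekly. By the study's design the mice of the 10 ECS array were given a sham session as well, 1 h before tissue was taken. The study used male mice bought at 8 weeks of age, of the substrain C57BL/6J or C57BL/6N, and which of these the arrays hold was not found. The free-text description of 3 of the samples names another treatment than the title, source and treatment fields, which match each other and were used here. With 1 array per group there is no spread within a group. No test was therefore possible, and words such as higher and lower describe these 4 arrays. The values are MAS5 signals, the linear probe set intensities of the Affymetrix software. Signals below 12 units were raised to 12 before ratios were taken, which is the 25th percentile over all probe sets and arrays. Where a gene had several probe sets with means over 50 units, their log2 ratios varied with a pooled SD of 0.222 for single ECS over sham and of 0.213, 0.226 and 0.215 for 11 over 10 ECS, 10 ECS over sham and 11 over single ECS. This spread covers probe sets and not arrays or mice.

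Most of these receptors are coupled to G proteins. Receptors coupled to Gi or Go lower cyclic AMP, open potassium channels and restrain transmitter release, those coupled to Gs raise cyclic AMP, and those coupled to Gq release calcium from stores. The nicotinic, P2X and 5-HT3 receptors are ion channels. In the DG, granule cells (GCs) receive serotonergic, noradrenergic and cholinergic fibres and are contacted by interneurons that release neuropeptide Y and somatostatin. Neuropeptide Y and dynorphin act on GC terminals and dendrites to limit excitation. The GC markers Prox1, Calb1, Tdo2, Dsp and Lct all had mean signals over 50 units. So did all measured markers of mossy cells and interneurons, pyramidal cells, astrocytes, oligodendrocytes and meninges, so this limit does not tell the DG from neighbouring tissue.

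Few receptor genes exceeded 50 units, the signal below which the study left genes out in another of its array comparisons. Over the 4 arrays, 12 of the 70 genes (17.1%) had a mean signal over 50, against 59.5% of all genes. By array, the number of receptor genes over 50 was 12 in sham, 13 after a single ECS, 11 after 10 ECS and 11 after 11 ECS. The shares of all genes over 50 were 60.8%, 57.8%, 59.6% and 58.2% in the same order. The 12 genes were Npy2r, Npy5r, Oprl1, P2ry12, Trhr, Sstr2, Htr1a, Npy1r, Adra2c, Htr3a, P2rx4 and Crhr1. Of these, 10 were over 50 on all 4 arrays, P2rx4 was over 50 on 3 and Crhr1 on 2. The genes just over the limit were Crhr1 with a mean of 52.2 and P2rx4 with 52.6, and the genes just under it were Htr1b with 46.6 and P2ry6 with 42.5. Signals of different probe sets are not on a common scale, so the order of these means is not an order of transcript levels. The other 58 genes had means under 50, and 30 of the 70 were at or below 12 units on all 4 arrays. A signal below 12 means that the probe set did not read the transcript above most dim probe sets, not that the receptor is absent.

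The 12 genes belonged to 9 of the 15 families with a probe set. The neuropeptide Y family had 3 of 5 genes over the limit and the serotonin family 2 of 13, Htr1a, the inhibitory autoreceptor and heteroreceptor 5-HT1A, and Htr3a, a subunit of the 5-HT3 channel. Adra2c, the alpha-2C adrenergic receptor, was 1 of 2 adrenergic genes, Oprl1, the receptor of nociceptin, 1 of 4 opioid genes, Sstr2 1 of 5 somatostatin receptors, Trhr, the receptor of thyrotropin-releasing hormone, 1 of 2, and Crhr1, the main brain receptor of corticotropin-releasing hormone, 1 of 2. P2rx4, an ATP-gated channel, was 1 of 6 P2X genes, and P2ry12, an ADP receptor known as a marker of microglia, 1 of 6 P2Y genes. The dopamine (3 genes), muscarinic (3), nicotinic (12), galanin (2), tachykinin (3) and cannabinoid (2) families had 0 members over the limit, and the adenosine family had 0 probe sets.

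Several receptors that are well known in the hippocampus read low on this array. Chrm3 and Chrm4 did not exceed 11.3 and 7.8 units on any array, and Chrm1, the main muscarinic receptor of principal neurons, did not exceed 13.9. Htr4, the Gs-coupled 5-HT4 receptor, read 11.3, 6.7, 6.9 and 10.0 units from sham to 11 ECS, so no ratio can be given for it. Htr2c stayed between 2.8 and 6.3, Galr1 between 0.6 and 11.0, Tacr1 between 1.6 and 2.5 and Sstr1 between 1.7 and 2.6. Oprm1, the mu opioid receptor, stayed between 7.6 and 13.6, Sstr3 between 3.1 and 11.2, Sstr4 between 1.5 and 14.5 and Oprk1, the kappa receptor, between 11.2 and 18.8. A middle group lay above 12 on all arrays but under 50. It held Drd2 (12.9 to 29.4), P2rx7 (17.6 to 24.6), Cnr1, the CB1 cannabinoid receptor (18.2 to 38.0), and the nicotinic subunits Chrnb2 (23.2 to 37.4) and Chrna4 (32.3 to 36.2), whereas Chrna7 spanned 9.8 to 23.6. Of the 34 receptors listed by name for description, 25 had a probe set, and the others were not analysed here.

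**Figure D1:**
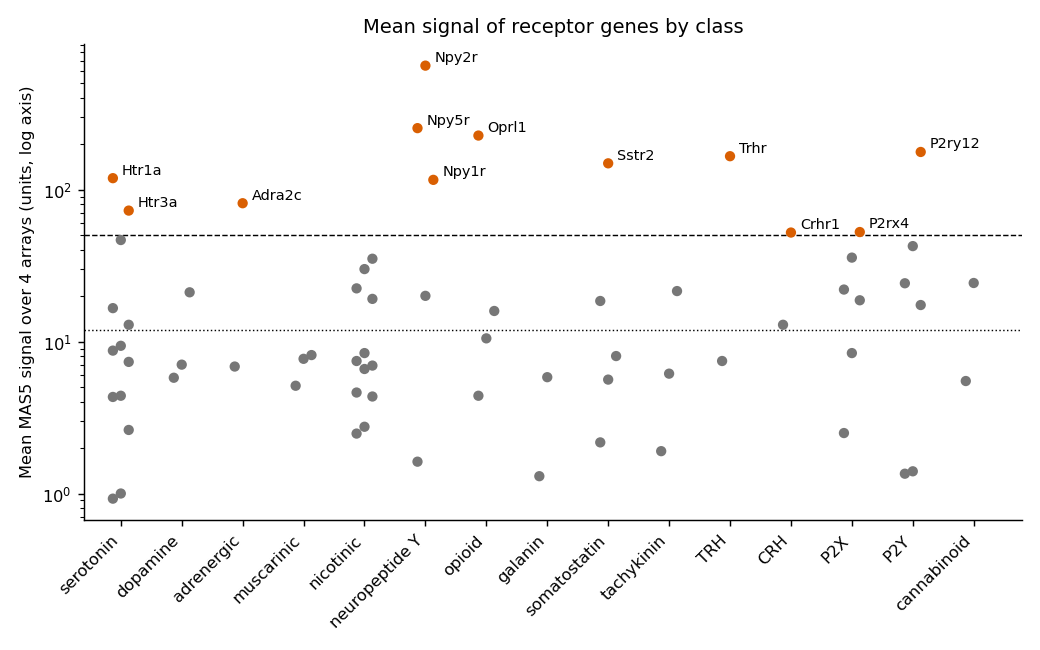
Mean MAS5 signal over the 4 arrays (units, log axis) of each of the 70 receptor genes by family, with the dashed line at 50 units and the dotted line at the floor of 12. The 12 genes over 50 are named, with Npy2r at 655 units and Crhr1 and P2rx4 just over the line at 52.2 and 52.6.

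The acute response was read on separate pairs of arrays, as a single ECS over sham and as 11 ECS over 10 ECS, which have no array in common. Lower in both were the Gi/o-coupled Npy2r, Npy5r, Htr1a, Oprl1 and Adra2c and the Gq-coupled Trhr, whereas Sstr2 was higher in both. Of the other Gi/o-coupled genes over 50 units, Npy1r was lower after the first ECS and higher after the 11th, and P2ry12 stayed near the median of all genes. Over the genes with a mean over 50, the median log2 ratio was -0.24 for single ECS over sham and -0.1 for 11 ECS over 10 ECS, and values called relative below have this shift removed. At least 2-fold lower after a single ECS were 3 of the 36 receptor genes above the floor on 1 or both arrays, Npy2r, Npy5r and Trhr, and 0 were 2-fold higher. Over all genes, 2.89% were 2-fold lower and 1.2% were 2-fold higher. Between the 11 ECS and 10 ECS arrays, 2 of 37 were 2-fold lower, Npy2r and Oprl1, and 0 were higher, against 1.21% and 1.06% of all genes. These counts depend on the scaling. With the arrays brought to the same median, 1 was lower (Npy5r) and 2 were higher (Htr1b and Chrna7) after a single ECS, and 0 passed 2-fold after the 11th. No share of all genes under this scaling was set beside these counts.

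Npy2r encodes the Y2 receptor, which sits mainly on axon terminals and inhibits release. Its only probe set read 816.2 units in sham, 403.7 after a single ECS, 958.4 after 10 ECS and 440.5 after 11 ECS. Both arrays taken 1 h after ECS thus lay below both arrays without a recent ECS. The ratios were 2.02-fold lower after the first ECS and 2.18-fold lower after the 11th, or -0.78 and -1.02 on the relative log2 scale. Of all genes with a mean over 50, 1.45% and 0.217% had a lower ratio. At 48 h after 10 ECS the signal was 1.17-fold above sham, so the lower level was not seen on the array without a recent stimulus.

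Htr1a and Oprl1 had the same shape. Htr1a read 153.1 units in sham, 84.4 after a single ECS, 154.1 after 10 ECS and 82.7 after 11 ECS. The sham and 10 ECS arrays were within 1.01-fold of each other, and the arrays at 1 h after ECS within 1.02-fold. The acute ratios were 1.81-fold and 1.86-fold lower. A second, dim probe set of Htr1a read 25.9, 20.5, 28.0 and 28.0 units, with log2 ratios of -0.34 and 0.0, so it showed the lower value only weakly after the first ECS and not after the 11th. Oprl1 read 321.3, 176.4, 279.5 and 130.3 units in the same order, 1.82-fold lower after the first ECS and 2.15-fold lower after the 11th. Its other probe sets read 97.2, 65.3, 105.5 and 63.7 units, and 30.7, 28.5, 45.4 and 1.7. All 3 probe sets of Oprl1 were thus lower on the 11 ECS array than on the 10 ECS array, and all 3 lower after a single ECS than in sham, the dimmest by a log2 ratio of only -0.11.

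Npy5r, the gene of the Y5 receptor, had the lowest relative ratio of the receptors after a single ECS. It read 427.6 units in sham, 141.1 after a single ECS, 277.9 after 10 ECS and 169.6 after 11 ECS. The first ratio was 3.03-fold lower, with 0.0678% of genes lower still, and the second was 1.64-fold lower. The second probe set had the same order of arrays, with 127.0, 31.2, 72.7 and 47.0 units and log2 ratios of -2.03 and -0.63. The smaller second ratio starts from a lower level after 10 ECS, which was 1.54-fold under sham, and both arrays at 1 h differed by 1.2-fold. Trhr, whose receptor is coupled to Gq and excites neurons, read 284.3, 131.8, 146.5 and 101.2 units. It was 2.16-fold lower after the first ECS and 1.45-fold lower after the 11th, and the sham array stood apart from the other 3. The other probe set of Trhr did not exceed 4.7 units and gave no ratio.

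Sstr2, which encodes a somatostatin receptor coupled to Gi, was higher in all 4 comparisons, alone among the 12 genes with a mean over 50. Of the dimmer receptor genes, Drd2 and Npy4r were also higher in all 4, with signals of 12.9 to 29.4 and 15.4 to 26.1 units. It read 104.1 units in sham, 142.6 after a single ECS, 140.9 after 10 ECS and 210.1 after 11 ECS. The ratios at 1 h were 1.37-fold and 1.49-fold higher, 0.69 and 0.68 on the relative log2 scale, with 2.92% and 2.18% of genes higher. The 10 ECS array was 1.35-fold above sham and the 11 ECS array 1.47-fold above single ECS. The 11 ECS array read highest of the 4, and sham lowest.

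**Figure D2:**
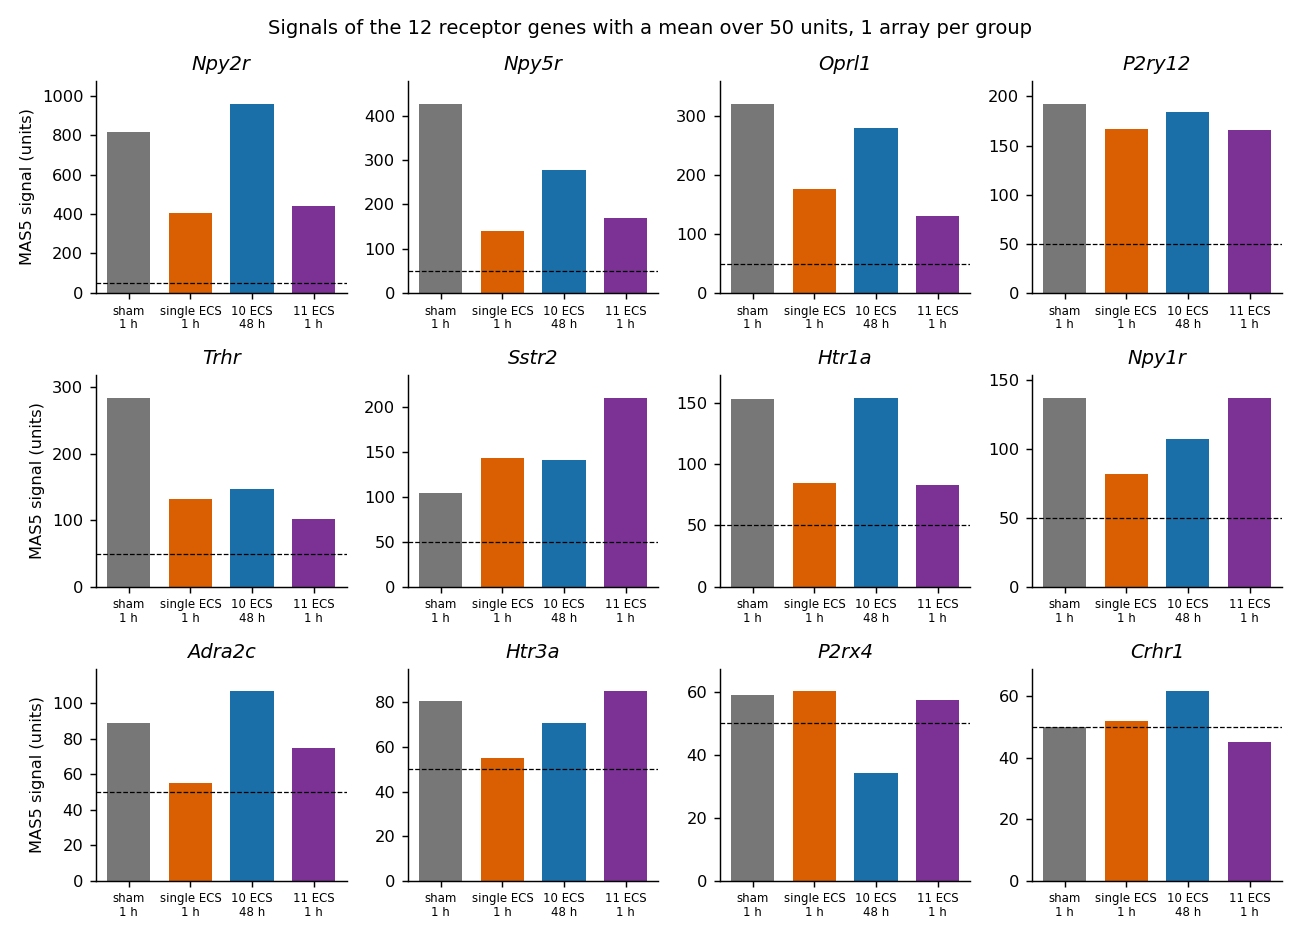
MAS5 signal (units, linear axis from 0) of the 12 receptor genes with a mean over 50, each bar 1 array of pooled RNA without replicates and the dashed line 50 units. Npy2r, Htr1a and Oprl1 are low on both arrays taken 1 h after ECS, Trhr is high in sham alone at 284.3 units, and Sstr2 is highest on the 11 ECS array at 210.1.

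Put together, 4 of the 12 genes (Npy2r, Npy5r, Htr1a and Oprl1) were at least 1.5-fold lower than the median of all genes in both acute pairs, against 0.746% of the 7370 genes with a mean over 50. Sstr2 alone of the 12 was 1.5-fold higher in both, against 2.13%. Among the 5728 genes whose mean signal lay between the dimmest and the brightest of the 12, 52.2 to 655 units, 0.838% were lower and 1.94% higher in both pairs. In the single pairs, 5 of the 12 were 1.5-fold lower after the first ECS (3.46% of all genes), the same 4 and Trhr, and 4 were 1.5-fold lower after the 11th (2.17%). Higher by this limit were Sstr2 after the first ECS (3.83% of all genes) and Sstr2 and P2rx4 after the 11th (2.96%). With quantile normalization Htr1a dropped out of the 4, and with the median over probe sets Npy2r and Sstr2 were left of the 5 genes. The median of the 12 was -0.48 relative to all genes after the first ECS and -0.38 after the 11th. Over all 70 receptor genes, with no minimum signal, it was 0.17 and 0.04. Many of the 70 were at or below 12 units on both arrays and count as unchanged. These values thus mirror the median log2 ratios of all genes, -0.17 and -0.04, and show no receptor response. Across the 12 genes, Pearson's r between the 2 acute ratios was 0.66 and Spearman's rho 0.76, against 0.71 and 0.51 over all 7370 genes. This describes 12 genes read on the same 4 arrays. At any size, 6 of the 12 were below the median of all genes in both acute pairs, the same 4 with Adra2c and Trhr, and 2 were above it, Sstr2 and P2rx4, where 34.1% of all genes were below and 34.1% above. The sign of P2rx4 after a single ECS turned with the setting.

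By signalling type, 8 of the 12 genes were Gi/o-coupled, as were 30 of the 70 receptor genes. In each acute pair 6 of the 8 lay below the median of all genes, with medians of -0.56 and -0.51. The Gi/o-coupled genes above it were Sstr2 in both, P2ry12 in the first, at 0.03, and Npy1r in the second. By definition as many genes lie below the median of all genes as above it. Of all 12 receptor genes, 8 lay below it in each acute pair. Counts this small do not set the Gi/o-coupled genes apart from the other receptors. The channel genes Htr3a and P2rx4 and the Gs-coupled Crhr1 had no shared direction. Adra2c, which restrains noradrenaline release, read 88.9, 55.2, 106.8 and 74.8 units and was 1.61-fold and 1.43-fold lower at 1 h. P2ry12 hardly varied, with 192.6, 166.9, 184.0 and 165.5 units. Among dimmer genes, P2ry14, a receptor of UDP-sugars, had the same shape as Npy2r, with 30.4, 15.4, 33.5 and 17.4 units, although it stayed under 50 on every array. Htr1b, a terminal autoreceptor of the serotonin system, read 36.2, 67.1, 40.3 and 42.9 units, and was over 50 after a single ECS only.

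**Figure D3:**
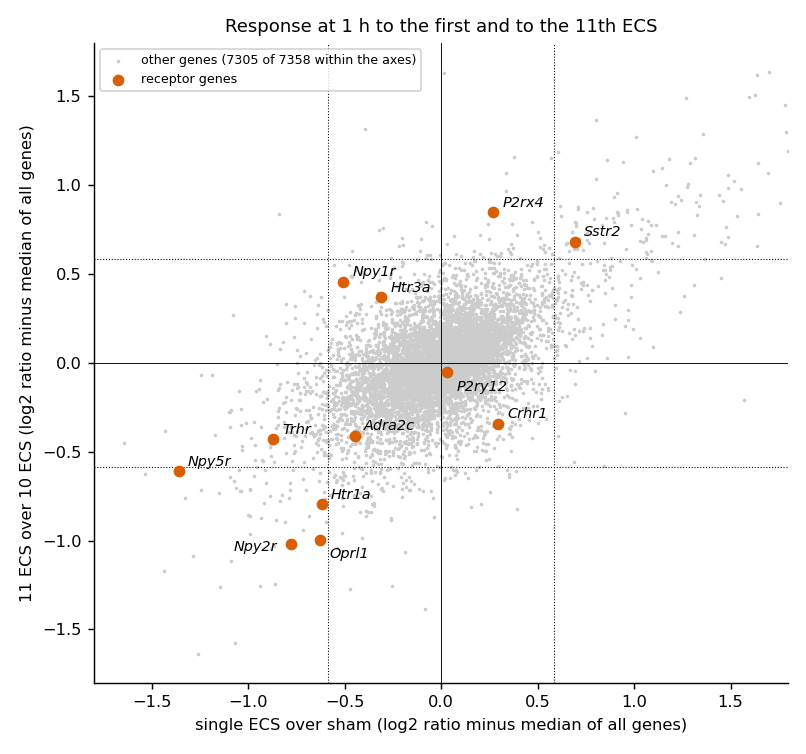
Log2 ratio of 11 ECS over 10 ECS against that of single ECS over sham, each minus the median of all genes, with the 12 receptor genes named, other genes with a mean over 50 units in grey and dotted lines at 1.5-fold. Npy2r, Oprl1, Htr1a and Npy5r lie at the lower left, Sstr2 at 0.69 and 0.68 at the upper right, and Npy1r at -0.51 and 0.45.

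The promoter sequences of 4 genes are shown because they set the contrasts side by side: Sstr2 against Npy2r, which had opposite ratios at 1 h, and Npy5r against its neighbour Npy1r, whose ratios differed at the 11th ECS. The starts of Npy5r and Npy1r lie 9.33 kb apart on the same chromosome in opposite orientation. Each line gives the 250 bases before the transcription start, 5′ to 3′ on the strand of the gene, from RefSeq on GRCm38.p6. Capitals mark a match on either strand to any of the motifs searched. These were the cyclic AMP response element, written TGACGTCA, and its shorter form, written TGACG. The others were the AP-1 motif, written TGAGTCA, the Egr motif, written GCGTGGGCG, and the E-box, written CANNTG.
Sstr2, chr11:113619077-113619326, plus strand: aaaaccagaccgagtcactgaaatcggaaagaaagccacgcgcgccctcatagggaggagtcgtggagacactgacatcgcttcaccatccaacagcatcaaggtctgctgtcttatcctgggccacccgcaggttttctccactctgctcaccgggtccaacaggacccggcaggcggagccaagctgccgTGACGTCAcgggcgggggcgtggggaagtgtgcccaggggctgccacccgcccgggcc
Npy2r, chr3:82548086-82548335, minus strand: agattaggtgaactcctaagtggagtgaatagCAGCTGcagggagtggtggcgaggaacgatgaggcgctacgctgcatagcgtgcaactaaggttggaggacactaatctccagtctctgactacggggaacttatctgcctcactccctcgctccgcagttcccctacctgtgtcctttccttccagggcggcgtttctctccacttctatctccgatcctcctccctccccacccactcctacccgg
Npy5r, chr8:66688095-66688344, minus strand: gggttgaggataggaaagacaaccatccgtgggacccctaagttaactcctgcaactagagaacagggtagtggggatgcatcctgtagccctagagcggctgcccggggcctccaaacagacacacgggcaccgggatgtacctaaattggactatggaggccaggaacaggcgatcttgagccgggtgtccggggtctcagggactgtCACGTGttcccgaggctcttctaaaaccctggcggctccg
Npy1r, chr8:66697172-66697421, plus strand: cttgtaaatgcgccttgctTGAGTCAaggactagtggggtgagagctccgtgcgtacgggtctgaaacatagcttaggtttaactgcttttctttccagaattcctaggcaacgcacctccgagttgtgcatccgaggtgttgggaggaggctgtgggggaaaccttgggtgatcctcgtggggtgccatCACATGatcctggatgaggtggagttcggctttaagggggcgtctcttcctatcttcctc

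Motifs were sought in 300 bases, 250 before and 50 after the start. The promoter of Sstr2 held the full cyclic AMP response element, with its first base 58 bases before the start, and was the only promoter of the 10 receptor genes over 50 units found in the table to hold it. Of all 32851 promoters, 1.79% held it. The part TGACG, which also overlaps the full element, was found in Sstr2 and P2rx4 and in 20.8% of all promoters. Npy1r held the AP-1 motif 231 bases before the start, as did 5.2% of all promoters. The Egr motif was found in 0 of these receptor promoters and in 0.612% of all. An E-box was found in 72.3% of all promoters and in 8 of the 12 promoter windows of these 10 receptor genes. It lay 218 bases before the start in Npy2r, 40 in Npy5r and 60 in Npy1r. A match is only a match of letters in this window.

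Npy1r, Htr3a and Crhr1 had acute ratios on opposite sides of the median of all genes, as did P2ry12, though close to it at 0.03 and -0.05. Npy1r, the postsynaptic Y1 receptor, read 137.3 units in sham, 81.9 after a single ECS, 107.3 after 10 ECS and 136.9 after 11 ECS. It was 1.68-fold lower after the first ECS and 1.28-fold higher after the 11th, so that the 11 ECS array was level with sham. A second probe set of Npy1r read 8.4 to 14.2 units, near the floor. Htr3a, which in the hippocampus is found mainly in interneurons, read 80.6, 55.1, 70.7 and 85.0 units, 1.46-fold lower and then 1.2-fold higher. Crhr1 read 49.9, 51.9, 61.6 and 45.2 units and its other probe set 42.8, 27.1, 24.1 and 27.1, with no shared order of arrays. P2rx4 read 58.8, 60.1, 34.2 and 57.2 units. Its single low value was the 10 ECS array, where its other probe set was the highest of the 4, at 28.6 units against 17.0 to 20.1, so the probe sets of P2rx4 disagree.

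The difference left by earlier sessions was read without a new ECS, as 10 ECS over sham, and with one, as 11 ECS over single ECS. These 2 comparisons have no array in common with each other, but each shares arrays with the acute pairs above. The sham and single ECS mice had 1 session, so repeated isoflurane and handling cannot be told apart from repeated ECS here. Of the 37 receptor genes above the floor on 1 or both arrays, 1 was 2-fold lower and 0 were higher in 10 ECS over sham, where 1.22% and 0.716% of all genes were. In 11 ECS over single ECS, 0 of 37 passed 2-fold in either direction, against 0.782% lower and 0.832% higher over all genes. The gene past 2-fold was P2rx5, with 60.4 units in sham, 32.4 after a single ECS, 20.9 after 10 ECS and 29.2 after 11 ECS. It was over 50 in sham alone, and with a floor of 50 it was no longer past 2-fold. The median of the 12 genes was 0.01 relative to all genes in 10 ECS over sham and 0.06 in 11 over single ECS, with 6 below and 6 above in each. With the median over probe sets the latter was 0.31, over 10 genes.

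Of the 12 genes, 2 were at least 1.5-fold lower than the median of all genes after 10 ECS (2.08% of all genes), P2rx4 and Trhr. Trhr was 1.94-fold below sham, with 0.583% of genes lower, and 1.3-fold below single ECS on the 11 ECS array. Its low ratios after a single ECS and after 10 ECS share the sham array. By the 1.5-fold limit 0 were higher after 10 ECS, against 1.67% of all genes. In 11 over single ECS, Npy1r (1.67-fold) and Htr3a (1.54-fold) were higher (1.85% of all genes) and 0 were lower (2.59%). No gene passed 1.5-fold in the same direction in both pairs, where 0.583% of all genes were higher in both and 0.624% lower. At any size, Adra2c, Npy2r and Sstr2 were above the median of all genes in both pairs and Oprl1, P2rx4 and Trhr below it, where 30.6% of all genes were above and 30.6% below. The sign of Oprl1 in 10 ECS over sham turned with the setting. Sstr2 had relative log2 ratios of 0.58 and 0.56 and Adra2c of 0.41 and 0.44, both higher, and Trhr of -0.81 and -0.38. Cnr1 was 1.91-fold below sham after 10 ECS, with 38.0 units in sham and 19.9 after 10 ECS, and had 21.0 after a single ECS and 18.2 after 11 ECS, all under 50. Drd2, a receptor gene known for its expression in hilar mossy cells, read 12.9, 18.9, 23.2 and 29.4 units, close to the floor.

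**Figure D4:**
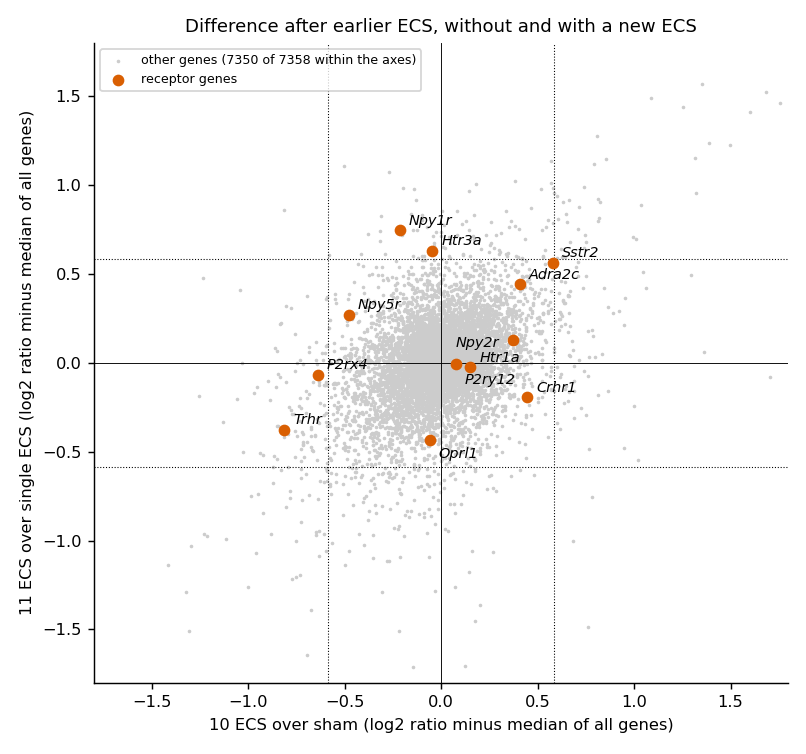
Log2 ratio of 11 ECS over single ECS against that of 10 ECS over sham, each minus the median of all genes, with the 12 receptor genes named, other genes with a mean over 50 units in grey and dotted lines at 1.5-fold. The 12 genes scatter around the centre, with Trhr at -0.81 and -0.38, Sstr2 at 0.58 and 0.56, and Npy1r highest on the vertical axis at 0.75.

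The genes that carry the signals of these receptors inside the cell were read on the same arrays. Of 29 listed genes of G proteins, adenylyl cyclases and phospholipase C, 25 were measured and 19 had a mean over 50. After a single ECS 1 of the 19 was 1.5-fold higher than the median of all genes (Plcb3, a phospholipase C gene) and 0 were lower. After the 11th 0 passed in either direction. The medians were 0.03 and -0.09. Gnai1, an inhibitory G protein subunit gene, read 2477.4, 2094.9, 2312.0 and 2217.5 units, while Gnas, the stimulatory subunit gene, 4538.6, 4418.0, 4202.0 and 4089.5. The desensitisation genes Grk6, Arrb1 and Arrb2 had relative ratios between 0.0 and 0.09 in both acute pairs. By this limit 0 of the G protein, cyclase and desensitisation genes were lower at 1 h after ECS in either pair. Over all genes 3.46% and 2.17% were lower, so a count of 0 in lists of 19 and 3 genes lies near the background.

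Genes of transmitter handling were mostly dim. Of 13 measured, 4 had a mean over 50, and Th, Tph1, Slc6a2, Slc6a4 and Slc5a7 were at or below 12 units on all arrays. Th, Slc6a2, Slc6a4 and Slc5a7 encode an enzyme and transporters of monoamine and cholinergic neurons, whose cell bodies lie outside the DG, and Tph1 the tryptophan hydroxylase of peripheral tissues and the pineal gland. None of the 4 passed 1.5-fold in either acute pair. Maoa, which degrades serotonin and noradrenaline, read 158.0, 128.1, 160.4 and 209.4 units and was 1.5-fold higher in 11 over single ECS. In the endocannabinoid list 5 of 5 measured genes had a mean over 50 and 0 passed 1.5-fold in the acute pairs. Daglb, which makes 2-arachidonoylglycerol, was higher after 10 ECS, with 97.7 units in sham and 140.7. Of the adenosine and nucleotide genes, 3 of 9 had a mean over 50 and 0 passed in the acute pairs. Over all genes 3.83% and 2.96% were 1.5-fold higher in the acute pairs and 3.46% and 2.17% lower. Counts of 0 in these lists of 4, 5 and 3 genes thus lie near the background. Panx1, an ATP-release channel gene, read 90.3 units in sham and 125.7 after 10 ECS.

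**Figure D5:**
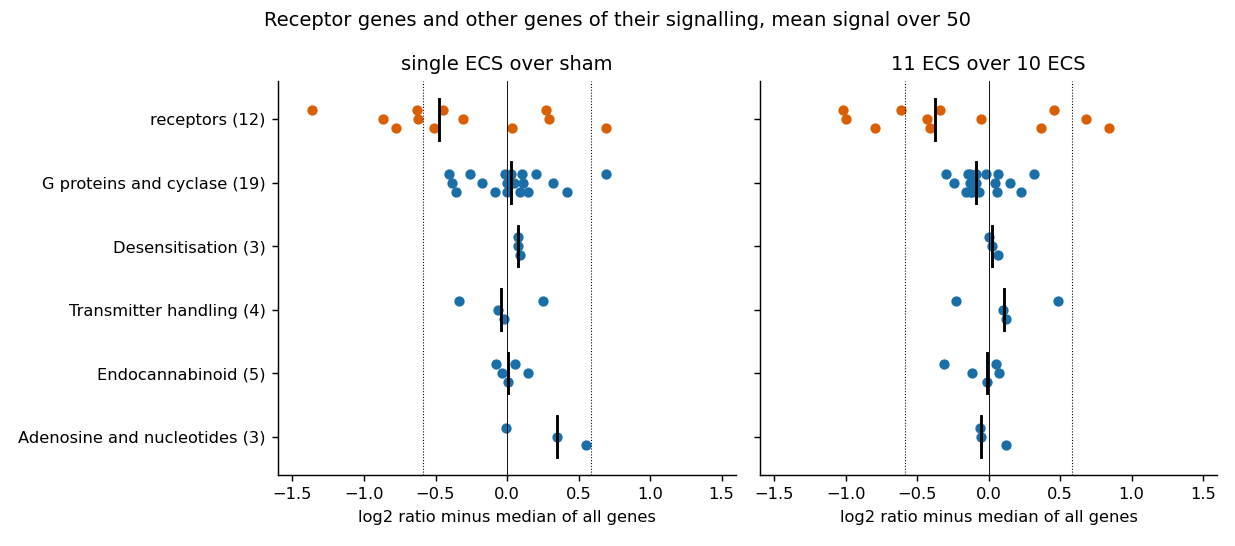
Log2 ratios minus the median of all genes for single ECS over sham and 11 ECS over 10 ECS, each point 1 gene with a mean signal over 50, with the number of genes in brackets, a black bar at the median and dotted lines at 1.5-fold. The 12 receptors over 50 units have medians of -0.48 and -0.38, and the 19 G protein and cyclase genes of 0.03 and -0.09. Over all 70 receptors with no minimum signal the values are 0.17 and 0.04, set by genes at the floor, which count as unchanged.

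From these pooled arrays alone, fewer cells of a type and less RNA per cell cannot be told apart. The paper reports that repeated ECS lowered calbindin protein, a mature GC marker, but left the neuronal marker NeuN unchanged. Partly on this ground it excludes non-specific damage to GCs. It proposes that mature GCs themselves lose mature features. Those proteins were read at a time after ECS that these arrays do not cover. The summed signal of the 5 measured GC markers was 5987 units in sham, 4576 after a single ECS, 3275 after 10 ECS and 2437 after 11 ECS. Their median was -0.36 relative to all genes in both acute pairs and -0.64 in 10 ECS over sham. Most of the sum came from Calb1 (3234.2 units in sham, 1303.6 after 11 ECS) and Dsp (1701.6 and 582.3). Prox1 did not follow it, with 68.6, 69.8, 57.1 and 62.7 units from sham to 11 ECS. Its relative ratios were 0.26 and 0.24 in the acute pairs and -0.12 in 10 ECS over sham. The markers thus had no shared course. At least 1.5-fold lower were 0 of the 5 after a single ECS, 2 after the 11th and 3 in 10 ECS over sham. Of all genes, 3.46%, 2.17% and 2.08% were. Trhr and Npy5r were lower in the same 3 comparisons, whereas Npy2r and Htr1a were not lower in 10 ECS over sham. In 11 over single ECS the median of the GC markers was -0.95. Trhr was at -0.38 there, but Npy5r was above the median of all genes, at 0.27. The 7 mossy cell and interneuron markers had medians of 0.11 and 0.05 in the acute pairs and summed signals of 6591 to 7590, with 0 of 7 past 1.5-fold. The 9 microglial markers summed to 2177 to 2350 units, and 0 of the 8 with a mean over 50 passed 1.5-fold in the acute pairs, beside the values of P2ry12. Over all genes 3.83% and 2.96% were 1.5-fold higher in the acute pairs and 3.46% and 2.17% lower. A count of 0 in lists of 7 and 8 genes thus lies near the background. Of 6 choroid plexus markers, Kcne2 and Otx2 were at or below 12 on all arrays, and the others had no shared order of arrays. Ttr read 67.2, 215.9, 103.4 and 76.9 units, and Kl 74.3, 38.4, 26.6 and 25.2. Sostdc1 read 26.9 to 51.2 units and Folr1 10.9 to 16.7. The 3 oligodendrocyte markers had a median of -0.37 after a single ECS, close to that of the GC markers, and of 0.09 after the 11th. The 4 meningeal markers had medians of -0.27 and -0.14 in the acute pairs and of -0.43 in 10 ECS over sham. In the latter Ogn was at -2.71, Igf2 at -0.84, Lum at -0.02 and Dcn at 0.75. Of the astrocyte markers, Gfap was at 1.35 in 10 ECS over sham, Aqp4 at 0.52, Slc1a2 at 0.37, Aldh1l1 at -0.13 and Slc1a3 at -0.3. The part of cell composition in these results was not tested. The ratio of 3′ to 5′ signal, a measure of RNA integrity, was 0.963 to 1.06 for Gapdh and 1.91 to 1.95 for Actb, and the median signal of an array was 56.3 to 69.3 units.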

How the data were processed

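The authors pooled the DG RNA of 3 mice per group, amplified 100 ng, hybridised 1 array per group and computed signals with the MAS5 algorithm of the Affymetrix operating software. The deposited values are MAS5 intensity values on a linear scale. How the arrays were scaled to each other was not found in these sources. Groups were taken from sample titles. Detection and change calls were not used. The number of arrays limits the precision.

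Of 22626 probe sets besides 64 controls, 20380 had 1 gene symbol in the platform annotation, 691 several and 1555 none. All 70 receptor symbols are in the GRCm38.p6 gene table, and 53 have a promoter in the RefSeq table. Signals under 12 were set to 12 for log2 ratios. Counts beyond 2-fold used genes above 12 on 1 or both arrays, and counts beyond 1.5-fold used genes with a mean over 50 after subtracting their median log2 ratio. Limits of size are not tests, and no p-value was computed. The code was tested on simulated data. Named genes were those past 1.5-fold in any comparison, the 10 with the highest means, 34 listed receptors, and those nearest to 50 units. P2rx5, P2ry14, Npy4r and Chrm4 were named after their values were seen, as were the pathway genes. The receptors, gene lists and limits were chosen with earlier results of these data known. Alternatives were floors of 50 and 1, median scaling, quantile normalization, the median over probe sets, and means over 100 or without a minimum. Analyses used Python 3.11.15, pandas 2.3.3 and numpy 2.4.6.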

Additional observations from a re-analysis of the deposited data

Results flagged for a closer look

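For 3 receptor genes the response to the first ECS and that to the 11th lay on opposite sides of the median of all genes. Each lay there by more than the pooled SD between probe sets stated above. That SD is pooled over many genes and is not the spread of these genes' own probe sets. The difference was not tested, since each response rests on 1 pair of arrays. At any size, 34.1% of all genes lay below their median in both acute pairs and 34.1% above it in both. All other genes changed sides or lay on it. The share that changed sides by more than the SD was not set beside these 3 genes, so they cannot be called more than the background. Npy1r had relative log2 ratios of -0.51 and 0.45, a difference of 0.96. With the median over its probe sets, 1 of them near the floor, its log2 ratio for the 11th ECS was 0.07 in place of 0.35 before removal of the shift. Htr3a, which has 1 probe set, had -0.31 and 0.37, a difference of 0.68. Crhr1 had 0.30 and -0.34, a difference of -0.64, and the first of these turned to a log2 ratio of -0.3 before removal of the shift with the median over its probe sets. The brighter probe set of Crhr1 had log2 ratios of 0.06 and -0.45 and the other -0.66 and 0.17, so they disagree on both responses.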

How the results depend on the processing

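No paired analysis was possible because each group had 1 array, and no array could be left out. The number of receptor genes past 2-fold depended on the floor. With a floor of 1 unit it was 19 of 69 for single ECS over sham, 9 higher and 10 lower. For 11 over 10 ECS that floor gave 21 of 70, 11 higher and 10 lower. It gave 15 of 67 for 10 ECS over sham, 8 higher and 7 lower. For 11 over single ECS it gave 19 of 68, 10 higher and 9 lower. The floor of 12 gave 3, 2, 1 and 0, and a floor of 50 gave 0 for 10 ECS over sham. Median scaling gave 0 and quantile normalization 1 for 11 over 10 ECS. For these other floors and scalings, no share of all genes past 2-fold was set beside the counts. The 1.5-fold limit gave 6, 6, 2 and 2. Without a minimum mean signal the receptor median turned to 0.17 and 0.04 in the acute pairs, where 58 of 70 genes were dim. Genes at the floor on both arrays count as unchanged there, so these values mirror the median of all genes. With the median over probe sets the receptor median was 0.31 for 11 over single ECS. Genes past 1.5-fold the same way in both acute pairs were 2 of 10 with the median over probe sets. In both repeated pairs 1 gene, Drd2, passed without a minimum mean signal. The cause of these shifts was not tested, apart from the dim genes that a low floor or no minimum adds.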
